A study of Mus musculus with 4 samples.

Results

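The 10 genes described here are Lama1, Lama2, Lama4, Lama5, Lamb1, Lamb2, Lamc1, Lamc3, Nid1 and Hspg2. They were taken by name from the 32285 genes of the deposited count matrices, and all 10 had unique molecular identifiers (UMIs, each standing for a captured RNA molecule) in all 4 libraries. 8 of them encode laminin chains and Nid1 encodes nidogen 1, whereas Hspg2 encodes perlecan, a heparan sulfate proteoglycan that is neither a laminin nor a nidogen and lies in the same matrix. Ovaries of 8-week-old female littermates were profiled in estrus by droplet single-cell RNA sequencing, with 2 libraries per genotype. Fosl2F/F mice (Fosl2flox/flox, the controls, labelled WT) carry LoxP sites flanking exons 2 and 4 of Fosl2 and no Cre. Fosl2cKO mice (Cyp19a1-Cre; Fosl2flox/flox, labelled as a knockout in granulosa cells, GCs) carry the same floxed alleles together with a Cre that the Cyp19a1 promoter drives in GCs, so that the other cells of these ovaries are not the target of the deletion. The number of samples per group in the study's text equals the number of libraries, but whether each library came from a single mouse is not stated outright, so each p-value measures only the spread between these libraries.

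Laminins are heterotrimers of an alpha, a beta and a gamma chain that polymerize into the sheet at the core of every basement membrane. Nidogen bridges laminin to the type IV collagen network, and perlecan binds both. In the ovary such membranes lie between the granulosa layer and the theca of each follicle, around vessels and beneath the surface epithelium, and single cells can also be surrounded by laminin.

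The 4 libraries held 57109 barcodes, of which 41538 were kept as cells. Fosl2F/F replicate 2 stood apart, with 19575 cells at a median of 3656 UMIs, against 6760 to 8150 cells at medians of 11177 to 12465 UMIs in the other libraries. Pairs of libraries shared 15 to 81 barcodes, which is 0.173% to 0.763% of the smaller library. In GC-like cells the level of Fosl2 was 160.4 and 167 CPM (UMIs per 1000000 UMIs) in Fosl2F/F replicates 1 and 2, and 167 and 115 CPM in Fosl2cKO replicates 1 and 2, so over all GC-like cells Fosl2cKO replicate 1 was not lower than the controls. Within the GC states described below, Fosl2cKO replicate 1 was below both controls in early (Amh Cited1)-like cells (127, 146, 114 and 111 CPM in the same library order), Cox4i2-led cells (104.7, 118, 91.8 and 85.5 CPM) and, by a small margin, mitotic-like cells (120.9, 152, 119.6 and 89.2 CPM). It lay between the controls in cumulus-like cells and cluster 7 and above both in mural-like cells (305 CPM against 248 and 223 CPM) and atretic-like cells. Fosl2cKO replicate 2 was below both controls in all 7 states but cumulus-like cells. The UMIs were read from the end of the transcript, and whether that end lies inside the deleted part is not given in the sources used here. For this reason the knockout group is written as the libraries labelled Fosl2cKO throughout. The study reported from immunoblots that Fosl2 protein was depleted in GCs of Fosl2cKO mice, which UMI counts of RNA do not measure.

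Cells were clustered without the 10 genes and without the other genes of a basement membrane list, and clusters were named from markers of each cell type. 12 classes had at least 20 cells in every library, and GC-like cells were divided further into 7 states. The state led by Ndufa4l2, Cox4i2 and Slc16a3 is written as Cox4i2-led cells. It held all 6 markers of the list for mitotic antral cells, but its 6 markers of cell division summed to 235 to 433 CPM, below the 865 to 1072 CPM of GC-like cells, and it is not called mitotic. The 11 GC markers summed to 9277 to 15044 CPM in GC-like cells and 241 to 662 CPM in endothelial-like cells, and the 8 endothelial markers to 5058 to 5789 CPM in endothelial-like and 21.9 to 36.8 CPM in GC-like cells. A level below is the UMIs of a gene per 1000000 UMIs of a class (CPM) in a library, with mean and SD over n = 4 libraries. Levels of one gene are compared between classes, and levels of different genes are not ranked against each other. Values in every library are given in the order Fosl2F/F replicate 1, Fosl2F/F replicate 2, Fosl2cKO replicate 1 and Fosl2cKO replicate 2.

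**Figure D1:**
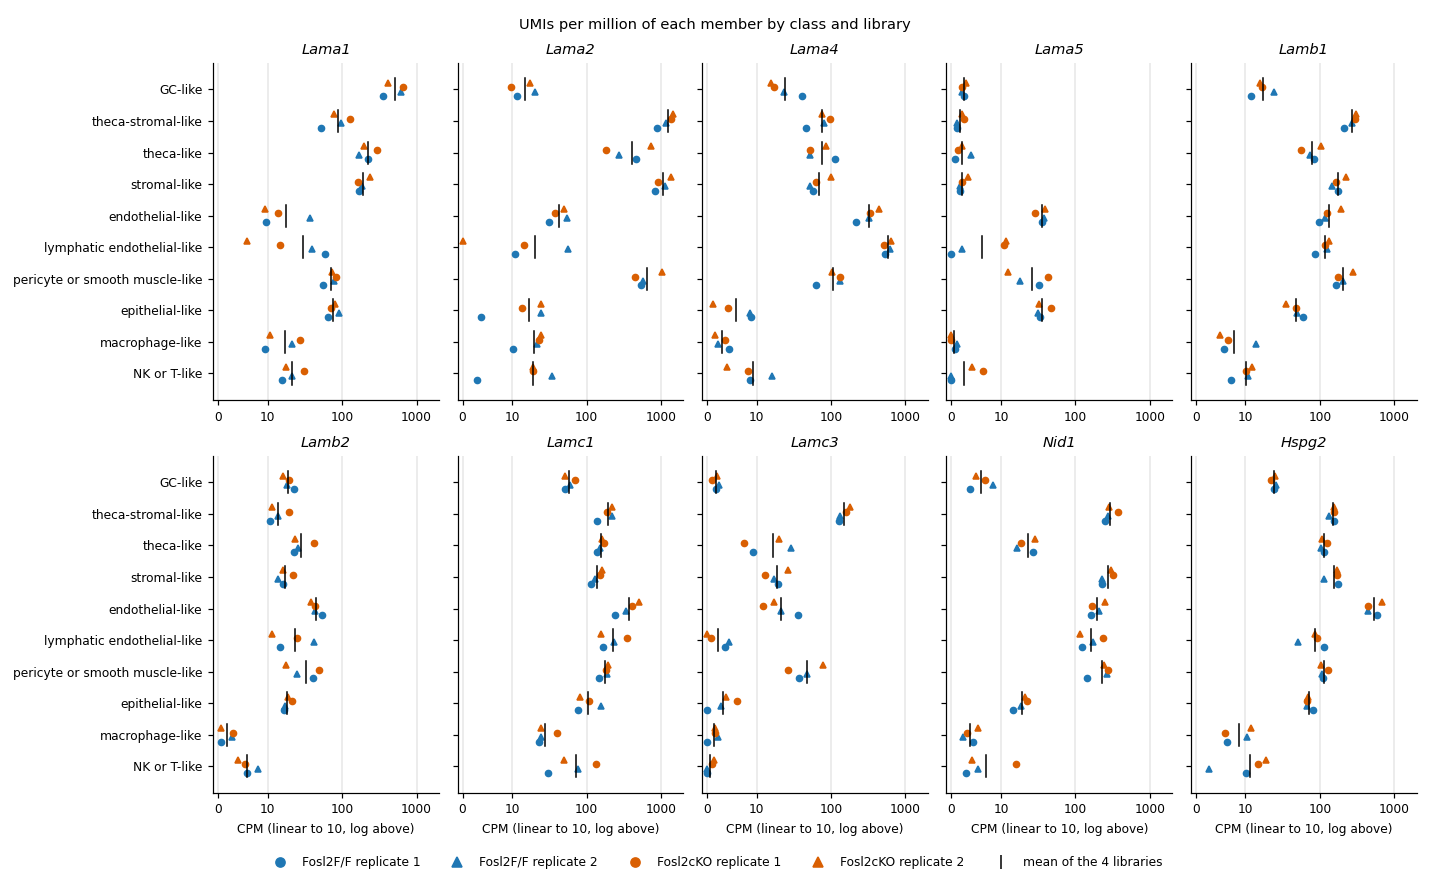
Level of each of the 10 genes in 10 of the 12 classes, in CPM on an axis that is linear to 10 and logarithmic above. Each symbol is a library (blue, Fosl2F/F; orange, labelled Fosl2cKO) and the black tick is the mean of the 4 libraries. Lama1 is highest in GC-like cells (353 to 654 CPM), Lama4 in lymphatic endothelial-like cells (521 to 643 CPM) and Hspg2 in endothelial-like cells (438 to 678 CPM).

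Of the alpha chains, which give a laminin its receptor binding, Lama1 (chr17:67697259-67822647, plus strand, GRCm38) was the one highest in GC-like cells. Its level there was 353, 618, 654 and 409.6 CPM (509 ± 149.7). Theca-like cells followed at 221, 166, 298 and 196 CPM, and stromal-like cells at 170.1, 183, 164 and 239 CPM. GC-like cells were 1.6 to 3.7 times above theca-like cells within a library and the ranges did not overlap, whereas theca-like and stromal-like cells overlapped. Endothelial-like and macrophage-like cells, at 17.4 ± 13.1 and 17.1 ± 8.45 CPM, had the gene at low levels. GC-like cells held 74.4% ± 5.38 of all Lama1 UMIs of a library. They also held a large part of the UMIs of all genes. This part was smallest in Fosl2F/F replicate 2 (38325764 of 104304591 UMIs) and largest in Fosl2F/F replicate 1 (71124606 of 107944564 UMIs).

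Lama2, the alpha chain known from muscle and peripheral nerve, had the opposite arrangement across the classes of the follicle and its surroundings. In theca-stromal-like cells Lama2 was at 887, 1181, 1358 and 1465 CPM, and in stromal-like cells at 839, 1143, 901 and 1355 CPM. Pericyte or smooth muscle-like cells followed at 650.3 ± 266 CPM and theca-like cells at 411 ± 241 CPM. These 4 classes overlapped in order of level, and theca-stromal-like cells were first in all 4 libraries. Below them was a gap, with endothelial-like cells at 43.0 ± 10.6 CPM and GC-like cells at 14.8 ± 4.96 CPM, the level of macrophage-like cells (19.6 ± 6.38 CPM). Theca-like cells were not uniform. Their cluster 8, led by Cyp17a1, the enzyme that makes androgens, had Lama2 at 804, 1150, 1077 and 1776 CPM, whereas cluster 2 had a mean of 94.9 ± 27.5 CPM and cluster 10 a mean of 12.4 ± 5.49 CPM. Clusters 2 (3601 cells) and 10 (1539 cells) had no theca marker among their leading genes, unlike cluster 8 (1859 cells). In Fosl2F/F replicate 1 cluster 10 held only 63 cells. Theca-like levels of every gene pool these clusters.

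Lama4 (chr10:38965515-39110188, plus strand), the alpha chain of vascular basement membranes, was highest in vessel-lining cells. Its level was 527, 612, 521 and 643 CPM in lymphatic endothelial-like cells and 213, 322, 329 and 447 CPM in endothelial-like cells, and these classes did not overlap. Pericyte or smooth muscle-like cells (107 ± 33.0 CPM), theca-like, theca-stromal-like and stromal-like cells (67.9 ± 21.6 CPM) followed and overlapped among themselves. The lymphatic class held 30 to 159 cells per library and its Lama4 values rested on 111 to 576 UMIs. Within the pericyte or smooth muscle-like class, cluster 15 (led by Rgs5, with Notch3, pericyte genes) had Lama4 at 187 ± 62.4 CPM and cluster 14 (led by Actg2 and Myh11, contractile genes of smooth muscle) at 48.4 ± 6.05 CPM.

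Lama5 (chr2:180176373-180225859, minus strand), the alpha chain of most adult epithelia and vessels, was detected at low counts. The classes with the highest levels were epithelial-like (33.4, 31.0, 46.5 and 32.2 CPM), endothelial-like (35.7, 38.1, 29.0 and 38.7 CPM) and pericyte or smooth muscle-like cells (32.6, 18.2, 42.2 and 12.6 CPM). These 3 classes overlapped and lay above all others, which had means of 6.16 CPM or less. Of the pericyte or smooth muscle-like cells, cluster 15 held Lama5 at 53.9 ± 30.2 CPM and cluster 14 at 6.75 ± 3.03 CPM, without overlap. In GC-like cells Lama5 was at 2.45 ± 0.339 CPM.

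The upstream sequences of Lama2 and Lama5 are shown because these alpha chains had the most different class patterns of those with an entry in the RefSeq promoter table (GRCm38.p6), which held 6 of the 10 genes. Lama2 has its window at chr10:27616943-27617192, minus strand, within the annotated span of the gene (26980036 to 27619758), and Lama5 at chr2:180225860-180226109, minus strand, directly upstream of the gene. Neither overlaps an annotated exon. Each is 250 bases long and ends at the base before the transcription start, and capitals mark the GC box (GGGCGG, either strand), the only motif found among those searched.
Lama2: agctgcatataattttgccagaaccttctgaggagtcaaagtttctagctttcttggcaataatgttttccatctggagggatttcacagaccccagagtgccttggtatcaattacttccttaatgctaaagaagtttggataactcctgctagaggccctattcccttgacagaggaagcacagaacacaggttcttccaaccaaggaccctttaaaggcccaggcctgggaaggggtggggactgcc
Lama5: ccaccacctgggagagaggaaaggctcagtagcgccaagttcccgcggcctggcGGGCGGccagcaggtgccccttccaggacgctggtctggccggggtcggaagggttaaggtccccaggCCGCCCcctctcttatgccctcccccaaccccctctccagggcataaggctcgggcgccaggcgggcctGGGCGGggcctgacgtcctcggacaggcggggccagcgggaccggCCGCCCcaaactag
The Lama5 sequence holds 4 GC boxes and the Lama2 sequence none. Counted with 50 bases past the start, the Lama5 window had 72.7% G and C and 24 CpG and the Lama2 window 50.3% and 1 CpG, against medians of 52.7% and 7 over the 32851 windows of the table. A GC box was present in 35.7% of all windows and in 5 of the 6 windows of these genes, Lamb2 being the exception, with that of Lama2 past the start. Fosl2 is a subunit of AP-1, and the AP-1 letters TGANTCA, searched on both strands, were in 7.81% of all windows and in 0 of the 6. TATAAA was in 13.6% of all windows and in 0 of the 6. The motifs do not overlap one another, and a missing match says only that these letters are not in this window.

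Lamb1 (chr12:31265234-31329644, plus strand), the widely used beta chain, was highest in theca-stromal-like cells at 209.7, 265, 293 and 309 CPM. From there its level descended without a gap through pericyte or smooth muscle-like (206 ± 51.9 CPM), stromal-like (177 ± 35.1 CPM), endothelial-like (133 ± 41.8 CPM), lymphatic endothelial-like, theca-like and epithelial-like cells (47.5 ± 9.51 CPM). GC-like cells, at 17.0 ± 5.14 CPM, lay below all of these without overlap. Lamb2 (chr9:108479736-108490530, plus strand), the beta chain of vessels, glomeruli and synapses, was most abundant in endothelial-like cells at 53.1, 42.6, 42.7 and 37.9 CPM. Each of the next 7 classes overlapped its neighbour, down to GC-like cells at 19.0 ± 2.71 CPM and theca-stromal-like cells at 13.8 ± 3.92 CPM. Lamb1 and Lamb2 therefore stood in different orders: theca-stromal-like cells were first of 12 for Lamb1 and the eighth for Lamb2.

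Lamc1 (chr1:153218922-153332786, minus strand), the gamma chain of most laminins, was highest in endothelial-like cells at 237, 335, 402 and 503 CPM, which overlapped lymphatic endothelial-like cells (227 ± 88.3 CPM). Its UMIs were spread over many classes: theca-stromal-like cells were at 192 ± 38.3 CPM, B lymphocyte-like cells at 189 ± 48.3 CPM (6 to 20 UMIs per library), stromal-like cells at 139.7 ± 20.7 CPM and GC-like cells at 58.6 ± 8.99 CPM. Macrophage-like cells (28.0 ± 7.85 CPM) and dendritic-like cells (10.2 ± 4.48 CPM) lay lowest, each without overlap with the class above. Lamc3 (chr2:31887291-31946539, plus strand), a gamma chain of more limited tissue distribution, was at 126, 131, 159.7 and 179 CPM in theca-stromal-like cells. Pericyte or smooth muscle-like cells came next at 37.5, 48.2, 26.8 and 79.0 CPM. The theca-stromal-like values were 2.27 to 5.97 times higher within a library, did not overlap the next class and made up 66.4% of the Lamc3 UMIs of a library on average. Of the UMIs of all genes these cells held the smallest part in Fosl2F/F replicate 1 (8195649 of 107944564) and the largest in Fosl2cKO replicate 2 (13821283 of 105152859). In GC-like cells Lamc3 was at 1.77 ± 0.562 CPM.

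Nid1 (chr13:13437551-13512269, plus strand), the laminin-to-collagen linker, was at 248, 274, 367 and 280.1 CPM in theca-stromal-like cells and at 229.7, 229.6, 314 and 303 CPM in stromal-like cells, which overlapped. Pericyte or smooth muscle-like (229 ± 60.6 CPM), endothelial-like (195 ± 39.4 CPM) and lymphatic endothelial-like cells (159.9 ± 53.6 CPM) overlapped each neighbour in turn. Below a gap lay theca-like cells at 22.8 ± 6.19 CPM and GC-like cells at 5.98 ± 1.97 CPM. Hspg2 (chr4:137468769-137570630, plus strand) was at 579, 444, 438 and 678 CPM in endothelial-like cells. Its next class, stromal-like cells, was at 172, 113, 167 and 169 CPM. Endothelial-like cells exceeded stromal-like cells 2.62 to 4.01 times within a library, without overlap, and lymphatic endothelial-like cells had only 85.9 ± 26.6 CPM of Hspg2. GC-like cells were at 24.0 ± 1.61 CPM.

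By highest class the 10 genes thus fell into 5 sets: Lama1 in GC-like cells, Lama2, Lamb1, Lamc3 and Nid1 in theca-stromal-like cells, Lamb2, Lamc1 and Hspg2 in endothelial-like cells, Lama4 in lymphatic endothelial-like cells and Lama5 in epithelial-like cells. The set of Lama5 rests on the mean, since epithelial-like cells were first in 1 of the 4 libraries, Fosl2cKO replicate 1, and endothelial-like cells were first in the other 3. It also rests on whole classes. Cluster 15 of the pericyte or smooth muscle-like class, pooled there with cluster 14, had a higher Lama5 mean than either, with the wide spread given above. For Lama2, Lama5, Lamb1, Lamb2, Lamc1 and Nid1 the highest class overlapped the next. All genes but Lama1 had a lower mean in GC-like than in stromal-like or endothelial-like cells, or in both. Of the other 36 genes of the list, Sparc (a collagen-binding matricellular protein) and Col4a1 (type IV collagen) were at 4982 ± 656 and 1486 ± 249 CPM in endothelial-like cells. In GC-like cells Dag1, the laminin receptor dystroglycan, was at 336 ± 111 CPM and the integrin chains Itgb1 and Itga6 at 249 ± 37.7 and 212 ± 81.5 CPM. These genes were named for their many UMIs, and their values do not rank them by expression.

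Depth differed between libraries and classes, so the share of cells with at least 1 UMI was also computed after thinning every cell to 2000 UMIs, which left out 5060 of the 41538 cells. The cells that remained were 7647, 15603, 6471 and 6755 in the 4 libraries. Macrophage-like cells, which are not known as a source of laminin, served as the reference for free RNA, with medians of 2266 to 8308 UMIs per library against 4620 to 19468 UMIs in GC-like cells. Lama1 was found in 39.4% to 59.8% of thinned GC-like cells (81.0% to 91.1% unthinned) and in 2.55% to 4.39% of thinned macrophage-like cells (4.20% to 11.3% unthinned). Lama2 was found in 73.0% to 85.3% of theca-stromal-like cells (93.3% to 99.4% unthinned), 2.03% to 4.59% of macrophage-like cells and 1.52% to 3.39% of GC-like cells, so its share in GC-like cells lay at that of the reference. Lamb1 was in 2.39% to 4.91% of GC-like and 1.31% to 2.19% of macrophage-like cells. Lama4 was in 52.6% to 75.0% of lymphatic endothelial-like cells and 32.1% to 51.8% of endothelial-like cells, against 0% to 0.510% of macrophage-like cells. Hspg2 was in 53.2% to 66.1% of endothelial-like cells, 4.27% to 4.85% of GC-like cells and 1.09% to 3.06% of macrophage-like cells. Lamc3 was in 21.9% to 29.8% of theca-stromal-like cells and 0.237% to 0.505% of GC-like cells, within the 0% to 0.522% of macrophage-like cells. For Nid1 the share was 34.3% to 52.0% in theca-stromal-like cells, 0.642% to 1.66% in GC-like cells and 0.261% to 1.53% in macrophage-like cells.

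**Figure D2:**
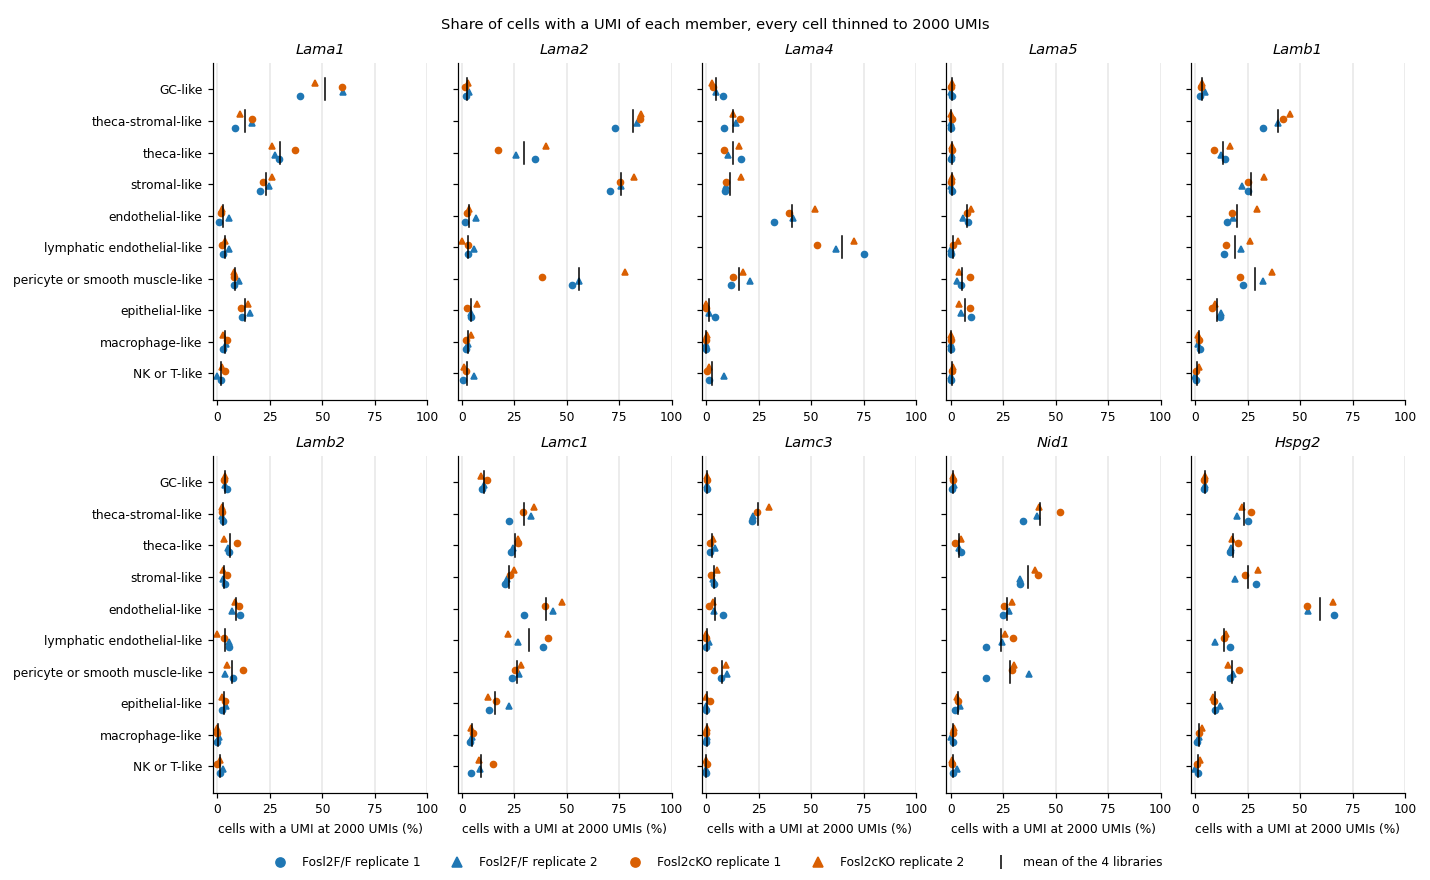
Share of cells with a UMI of each gene after thinning every cell to 2000 UMIs, in percent, for 10 classes. Symbols are libraries and the black tick their mean. Lama2 reaches 73.0% to 85.3% of theca-stromal-like cells and lies at 1.52% to 3.39% in GC-like cells.

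Lama1 and Lama4 were highest in different granulosa states. Lama1 was at 744, 1079, 1179 and 851 CPM in cumulus-like cells and at 225, 386, 434 and 259 CPM in mural-like cells. Cumulus cells lie next to the oocyte and mural cells line the follicle wall, but position was not measured here. The cumulus-like cluster held 3 of the 5 markers of its list and the mural-like cluster 6 of 6. Of the cumulus list, Gatm, Cdh12 and Pcsk6 were among the leading genes of the cumulus-like cluster, and Slc38a3 and Ptx3 were not. Slc38a3 was instead a leading gene of early (Amh Cited1)-like cells, so the name cumulus-like rests on part of its list. Cumulus-like cells were first of 7 states in all 4 libraries and did not overlap mural-like cells. Early (Amh Cited1)-like cells lay between at 556 ± 153 CPM, 1.55 to 2.14 times below cumulus-like cells within a library although the ranges over libraries overlapped. Lama4 was instead highest in mural-like cells, at 97.2, 48.3, 47.4 and 56.8 CPM, against 14.5 ± 4.52 CPM in cumulus-like cells. Mural-like cells did not overlap the next state, mitotic-like cells at 23.9 ± 11.7 CPM, and early (Amh Cited1)-like cells had the least, 5.99 ± 2.58 CPM. In thinned cells Lama4 was found in 8.50% to 17.1% of mural-like cells.

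**Figure D3:**
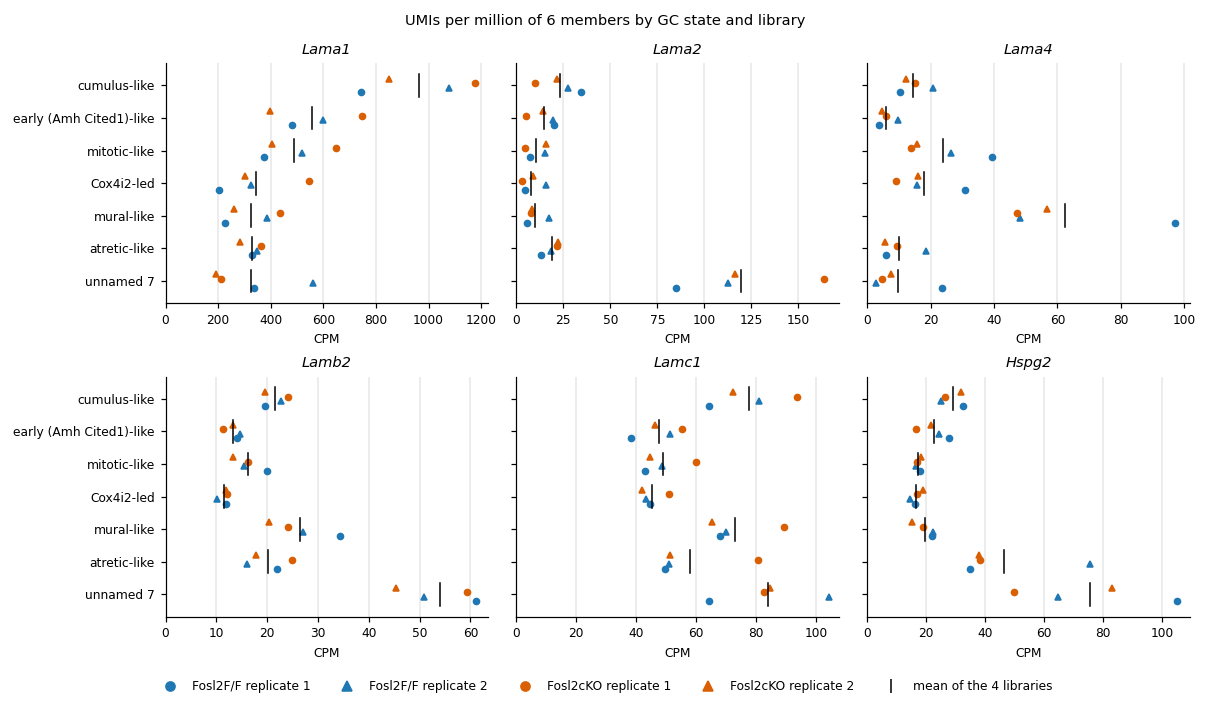
Level of 6 of the genes in the 7 GC states, in CPM on linear axes that start at 0. Symbols are libraries and the black tick their mean. Lama1 is highest in cumulus-like cells (744 to 1179 CPM) and Lama4 in mural-like cells (47.4 to 97.2 CPM).

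The GC state that no marker list named, cluster 7, was led by Col6a6 and Nmu and held 278 cells, 38 to 88 per library. It had the highest Lama2 of the states, at 84.7, 113, 164 and 116 CPM against 23.2 ± 10.4 CPM in cumulus-like cells, and the highest Lamb2, at 61.0, 50.8, 59.3 and 45.3 CPM against 26.5 ± 5.95 CPM in mural-like cells. Neither overlapped the next state. The counts behind them were 25 to 105 UMIs for Lama2 and 18 to 38 UMIs for Lamb2. Hspg2 was 105, 64.9, 49.9 and 83.0 CPM in this cluster, which overlapped atretic-like cells (46.5 ± 19.3 CPM). In the same cells the 11 GC markers summed to 2135 to 4768 CPM, below the range of GC-like cells as a whole, as were cumulus-like (3693 to 4860 CPM), atretic-like (7073 to 8247 CPM) and early (Amh Cited1)-like cells (7849 to 9157 CPM), and the 9 stromal markers to 333 to 476 CPM, above the 79.2 to 134 CPM of GC-like cells, while the 5 theca-stromal markers summed to 192 to 625 CPM, above the 121 to 167 CPM of GC-like cells. The part of such markers in these levels was not tested. Lamb1, Lamc1, Lamc3 and Nid1 overlapped between each state and the next, with highest means of 31.7 ± 5.68 CPM in cumulus-like cells for Lamb1, 84.0 ± 16.3 CPM in cluster 7 for Lamc1, 2.35 ± 1.32 CPM in atretic-like cells for Lamc3 and 15.1 ± 5.21 CPM in cumulus-like cells for Nid1.

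Likeness between genes was measured as Pearson's r of log2(CPM + 1) over the means of 19 classes and states, which share the same 4 libraries but no cells. The GC states stood in place of GC-like cells, and an unnamed cluster of low depth was included. It is a description over 11416 genes. Lama1 was nearest to Igf1r, the receptor for insulin-like growth factor 1 (r = 0.969), Lama2 to Ddr2, a collagen receptor (r = 0.971), and Lama4 to Stox2 (r = 0.927). Lama5 was nearest to Actn4, an actin crosslinker (r = 0.905), Lamb1 to Fbxl7 (r = 0.954), Lamb2 to Dync1li2 (r = 0.955) and Lamc1 to Flywch1 (r = 0.909). Lamc3 was nearest to Enpep (r = 0.922), an aminopeptidase that was also a marker for naming the theca-stromal-like class, Nid1 to Fstl1 (r = 0.969) and Hspg2 to Fbxl7 (r = 0.935). Among the 10 genes the pair with the highest r was Nid1 and Lamb1 (0.933) and the pair with the lowest was Nid1 and Lama1 (-0.25). Lamc3 and Lama2 had r = 0.839, and Lamc1 and Hspg2 r = 0.865.

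The comparison between the conditions asks whether a Fosl2 deletion aimed at GCs is accompanied by other levels of these genes, in the GCs or around them. It was made in 14 classes or states with edgeR's quasi-likelihood test on UMIs summed per library, and the threshold was an adjusted p under 0.1 together with a log2 fold change over 0.25 in either direction. Of 129 tests of the 10 genes, 0 passed with edgeR, against 0.0875% of the 177061 tests over all genes. Of the same 129 tests, 11 had an unadjusted p under 0.05. Over all genes tested, the smallest share under this unadjusted limit was 421 of 12339 genes, in pericyte or smooth muscle-like cells. The largest was 1240 of 12337 genes, in Cox4i2-led cells. Of the 129 tests DESeq2 passed 1, Lama4 in mitotic-like cells, against 0.556% of its tests over all genes in the 14 comparisons. In 38 of the 129 the libraries of the conditions did not overlap, and over all genes 32.3% of the tests in the 14 comparisons were without overlap, so the count of the 10 genes is near that of all genes. GC-like cells hold the cells of all the GC states, so these tests are not independent. An exact permutation test of 2 against 2 libraries cannot give a two-sided p below 0.333. In the following paragraphs the levels of the 10 genes are CPM on TMM-scaled library sizes, except where unscaled is written, marker sums are CPM on unscaled library sizes, and a fold change is that of the libraries labelled Fosl2cKO against Fosl2F/F.

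In GC-like cells 0 of the 10 genes passed, where 0.00579% of all 17257 genes did. Lama4 had 42.3, 23.2, 16.6 and 15.6 CPM, lower in both libraries labelled Fosl2cKO than in either Fosl2F/F library (log2 fold change -1.03 ± 0.29 SE, edgeR adjusted p = 0.889). Without Fosl2F/F replicate 1, the highest library, it was -0.51. The 6 mural markers summed to 1163, 337, 358 and 282 CPM in the same cells, and mural-like cells made up 31.2%, 14.5%, 15.8% and 11.9% of GC-like cells, in the same library order. Their part in the Lama4 values was not tested. Within mural-like cells, the state with the highest Lama4, the conditions overlapped, at 99.6, 49.3, 46.3 and 56.3 CPM (log2 fold change -0.55, edgeR adjusted p = 0.999), and it was 0.07 without Fosl2F/F replicate 1. Lama1 had 367, 607, 637 and 412 CPM and overlapped between the conditions (log2 fold change 0.11, with -0.19 without Fosl2F/F replicate 1 and -0.24 without Fosl2cKO replicate 1).

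Within the GC states the counts of genes that passed were 0 of 10 in atretic-like cells (0.0307% of all genes), 0 of 10 in cumulus-like cells (0.153%), 0 of 10 in early (Amh Cited1)-like cells (0.0158%), 0 of 9 in Cox4i2-led cells (0.00811%), 0 of 10 in mitotic-like cells (0.00686%), 0 of 9 in mural-like cells (0.0158%) and 0 of 5 in cluster 7 (0.0811%). Lama4 in mitotic-like cells had the lowest unadjusted p of all 129 tests, with 40.1, 26.5, 13.6 and 15.9 CPM. Again both libraries labelled Fosl2cKO had less than either control (log2 fold change -1.18 ± 0.25 SE, edgeR adjusted p = 0.334). With DESeq2 its adjusted p was 0.0109, where 1.18% of all genes passed, and over all settings edgeR and DESeq2 gave an adjusted p between 6.76e-05 and 0.952. The mural markers summed to 864, 315, 228 and 266 CPM in mitotic-like cells, and the values of Lama4 were 52.4, 34.3, 18.0 and 23.1 CPM in their cluster 3 and 2.18, 10.9, 8.13 and 6.42 CPM in their cluster 6 on unscaled library sizes. Cluster 3 held 74.0%, 66.3%, 59.8% and 55.8% of the UMIs of mitotic-like cells, less in both libraries labelled Fosl2cKO. Within cluster 3 the conditions did not overlap in Lama4, and in cluster 6 they did. The part of the mural markers and of the cluster shares in the difference was not tested.

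Lama4 in Cox4i2-led cells had 32.0, 15.93, 8.90 and 15.89 CPM (log2 fold change -0.98 ± 0.41 SE, edgeR adjusted p = 0.493). The second and the fourth library were nearly equal, and without TMM scaling they overlapped (30.8, 15.7, 9.14 and 16.0 CPM). The log2 fold change was -0.36 without Fosl2F/F replicate 1 and -0.61 without Fosl2cKO replicate 1. The mural markers summed to 354, 179, 121 and 156 CPM in these cells, highest and lowest in the same libraries as Lama4, and their part was not tested. Lama2 was lower in both libraries labelled Fosl2cKO in cumulus-like cells, with 36.0, 27.3, 9.32 and 21.6 CPM (log2 fold change -1.04 ± 0.36 SE, edgeR adjusted p = 0.896). It was also lower in early (Amh Cited1)-like cells, with 21.7, 19.5, 5.01 and 14.3 CPM (log2 fold change -1.04 ± 0.43 SE, edgeR adjusted p = 1). In both states Lama2 was lowest in Fosl2cKO replicate 1, and the log2 fold change was -0.54 and -0.53 without this library and -1.76 and -2.04 without Fosl2cKO replicate 2. On unscaled library sizes Lama2 was 34.2, 27.5, 9.66 and 21.5 CPM in cumulus-like cells and 10.2, 21.3, 22.8 and 24.1 CPM in macrophage-like cells, the reference for free RNA, so that it lay above that reference in both Fosl2F/F libraries and below it in both libraries labelled Fosl2cKO. The part of free RNA in this difference was not tested. In thinned cells the share with Lama2 was 5.34%, 3.75%, 1.85% and 4.12% in cumulus-like against 2.19%, 2.87%, 2.03% and 4.59% in macrophage-like cells. Lamc3 in cumulus-like cells had 3.60, 3.03, 0.491 and 1.155 CPM (log2 fold change -2.04 ± 0.59 SE, edgeR adjusted p = 0.462), which rested on 21, 30, 4 and 7 UMIs. Unscaled, Lamc3 ran from 0.509 to 3.42 CPM in cumulus-like and from 0 to 2.30 CPM in macrophage-like cells. The part of free RNA was not tested here either. In early (Amh Cited1)-like cells 4 of the 10 genes (Lama2, Lama5, Lamb2 and Hspg2) lay lower without overlap, where 16.0% of all genes did. Of these, Lama5 was at only 1.58 to 5.77 CPM (unscaled). Lama1 in cluster 7 had 364, 587, 213 and 203 CPM, lower in both libraries labelled Fosl2cKO (log2 fold change -1.20 ± 0.36 SE, edgeR adjusted p = 0.633; -0.79 without Fosl2F/F replicate 2). In the same cells the 5 theca-stromal markers summed to 199.9, 192, 292 and 625 CPM, higher in both libraries labelled Fosl2cKO, and theca-stromal-like cells had Lama1 at 87.9 ± 31.1 CPM (unscaled). Cluster 7 made up 0.855%, 1.27%, 4.07% and 2.93% of GC-like cells. The part of either in the Lama1 values was not tested.

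**Figure D4:**
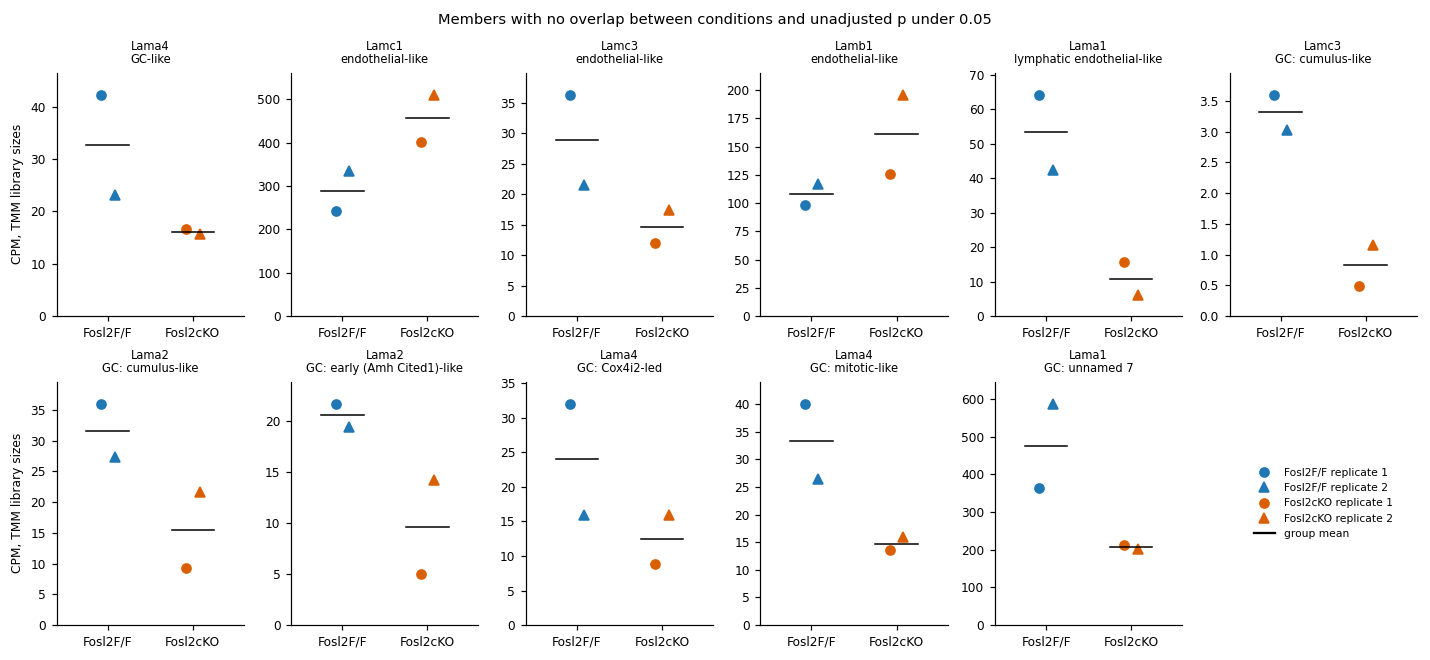
The 11 results in which the libraries of the conditions did not overlap and the unadjusted p was under 0.05, in CPM on TMM-scaled library sizes with axes from 0. Symbols are libraries and black lines group means. Lama4 in mitotic-like cells has 40.1 and 26.5 CPM in the controls against 13.6 and 15.9 CPM, and no edgeR adjusted p of the 11 is below 0.331.

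In endothelial-like cells 0 of the 10 genes passed (0.336% of all genes). Lamc1 had 242, 335, 401 and 510.4 CPM, higher in both libraries labelled Fosl2cKO (log2 fold change 0.65 ± 0.25 SE, edgeR adjusted p = 0.660). Lamb1 had 98.2, 117, 126 and 196 CPM, likewise higher in both (log2 fold change 0.57 ± 0.26 SE, edgeR adjusted p = 0.947), and the fold change was 0.22 without Fosl2cKO replicate 2. Lama4 was the third gene above without overlap, at 217, 322, 328 and 454 CPM, where 14.1% of all genes were higher without overlap. Lamc3 was lower, with 36.3, 21.5, 11.98 and 17.4 CPM (log2 fold change -0.91 ± 0.36 SE, edgeR adjusted p = 0.725), and it was -0.55 without Fosl2F/F replicate 1. Lamb2 was the other gene below without overlap, at 54.0, 42.57, 42.54 and 38.4 CPM (log2 fold change -0.23, with -0.07 without Fosl2F/F replicate 1), where 14.7% of all genes were lower without overlap. Lama1 had the lowest log2 fold change in these cells, -1.15 ± 0.51 SE (edgeR adjusted p = 0.999), with 9.82, 36.8, 13.6 and 9.51 CPM, which overlapped. It was 0.23 without Fosl2F/F replicate 2, the highest library, and -1.66 without Fosl2F/F replicate 1. The 5 markers of theca-stromal-like cells, the class with the highest Lamc3, summed to 117, 121, 76.6 and 92.4 CPM in endothelial-like cells, higher in both Fosl2F/F libraries. The 10 pericyte or smooth muscle markers summed to 917, 422, 433 and 488 CPM, highest in Fosl2F/F replicate 1, where Lamc3 was highest too. GC markers were also higher in both Fosl2F/F libraries (662, 446, 255 and 241 CPM). The part of these cells was not tested. In lymphatic endothelial-like cells 0 of 6 genes passed (0.206% of all genes), and Lama1 had 64.2, 42.5, 15.7 and 6.06 CPM (log2 fold change -1.91 ± 0.58 SE, edgeR adjusted p = 0.331), with -3.00 without Fosl2cKO replicate 1. These values rested on 16, 18, 16 and 1 UMIs, so the value of -3.00 has a single UMI on the side labelled Fosl2cKO. The unscaled levels of Lama1 were 59.02, 39.3, 14.5 and 5.80 CPM there and 9.54, 21.3, 27.0 and 10.7 CPM in macrophage-like cells, the reference for free RNA, below which both libraries labelled Fosl2cKO lay. GC markers summed there to 1273, 509, 553 and 319 CPM, highest and lowest in the same libraries as Lama1, and their part was not tested.

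In the stromal-like class 0 of 10 genes passed (0.340% of all genes), as in theca-stromal-like (0.106%), theca-like (0.00632%) and pericyte or smooth muscle-like cells (0.0243%). The fold changes of all 10 genes were above 0 in stromal-like, theca-stromal-like and pericyte or smooth muscle-like cells, with medians of 0.31, 0.26 and 0.21 on the log2 scale beside medians of 0.01, -0.01 and 0.00 over all genes tested, of which 51.3%, 49.2% and 50.4% were above 0. Elsewhere among the 14 comparisons fewer were above 0, such as 6 of 10 in theca-like cells (median 0.06), 5 of 10 in endothelial-like cells (0.05), 3 of 10 in GC-like cells (-0.15) and 2 of 10 in early (Amh Cited1)-like cells (-0.36). Outside the 14, it was 4 of 4 genes tested in NK or T-like (0.62), 3 of 5 in macrophage-like (0.33), 4 of 9 in epithelial-like (-0.10) and 1 of 1 in B lymphocyte-like cells. GC markers were lower in both libraries labelled Fosl2cKO in each class with all 10 genes above 0, with 1116, 585, 449 and 536 CPM in stromal-like, 576, 392, 292 and 298 CPM in theca-stromal-like and 1184, 604, 539 and 482 CPM in pericyte or smooth muscle-like cells. This was not particular to those classes. The same markers were lower in both in theca-like (1525, 1173, 948 and 906 CPM), endothelial-like, macrophage-like, dendritic-like, NK or T-like and B lymphocyte-like cells. In GC-like, epithelial-like and lymphatic endothelial-like cells the conditions overlapped or were not ordered this way. Of the stromal-like cells, 13 of 899, 69 of 2933, 97 of 1115 and 36 of 1329 were in cluster 23 and the others in cluster 0. The part of these in the fold changes was not tested. The counts of genes above 0 depended on single libraries. With a library left out, 7 to 10 of the 10 genes were above 0 in stromal-like, 7 to 9 in theca-stromal-like and 6 to 7 in pericyte or smooth muscle-like cells. The medians then ran from 0.22 to 0.44, from 0.15 to 0.34 and from 0.10 to 0.38, the last falling to 0.10 without Fosl2F/F replicate 1 or Fosl2cKO replicate 1. With the replicate number as a block, 8 of 10 were above 0 in pericyte or smooth muscle-like cells, and with finer clusters 9 of 10 in stromal-like cells. Stricter doublet removal gave 9 of 10 in theca-stromal-like and in pericyte or smooth muscle-like cells. Keeping cells over 2000 UMIs gave 9 of 10 in theca-stromal-like cells. The genes rest on the same libraries and are not independent of each other. Lama4, Lama5, Lamc1 and Nid1 were higher without overlap in stromal-like cells, 4 of 10 where 14.0% of all genes were. Lama5 was at only 1.65 to 3.42 CPM there (unscaled). Nid1, for instance, had 234, 227, 321 and 297 CPM (log2 fold change 0.42, edgeR adjusted p = 1). Lama2, Lama5, Lamb1 and Lamc3 were higher without overlap in theca-stromal-like cells, 4 of 10 where 15.6% of all genes were. Lama5 was at only 1.06 to 2.55 CPM in these cells (unscaled). Lama2 had 967, 1174, 1317 and 1405 CPM in theca-stromal-like cells (log2 fold change 0.35, edgeR adjusted p = 1, with 0.20 without Fosl2F/F replicate 1). In pericyte or smooth muscle-like cells each of the 10 genes overlapped between the conditions. Of the 36 other genes of the basement membrane list, 413 tests in the 14 classes gave 0 passes with edgeR and 24 unadjusted p under 0.05, with a lowest adjusted p of 0.156. For all genes, the smallest and largest shares under this unadjusted limit are given above.

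**Figure D5:**
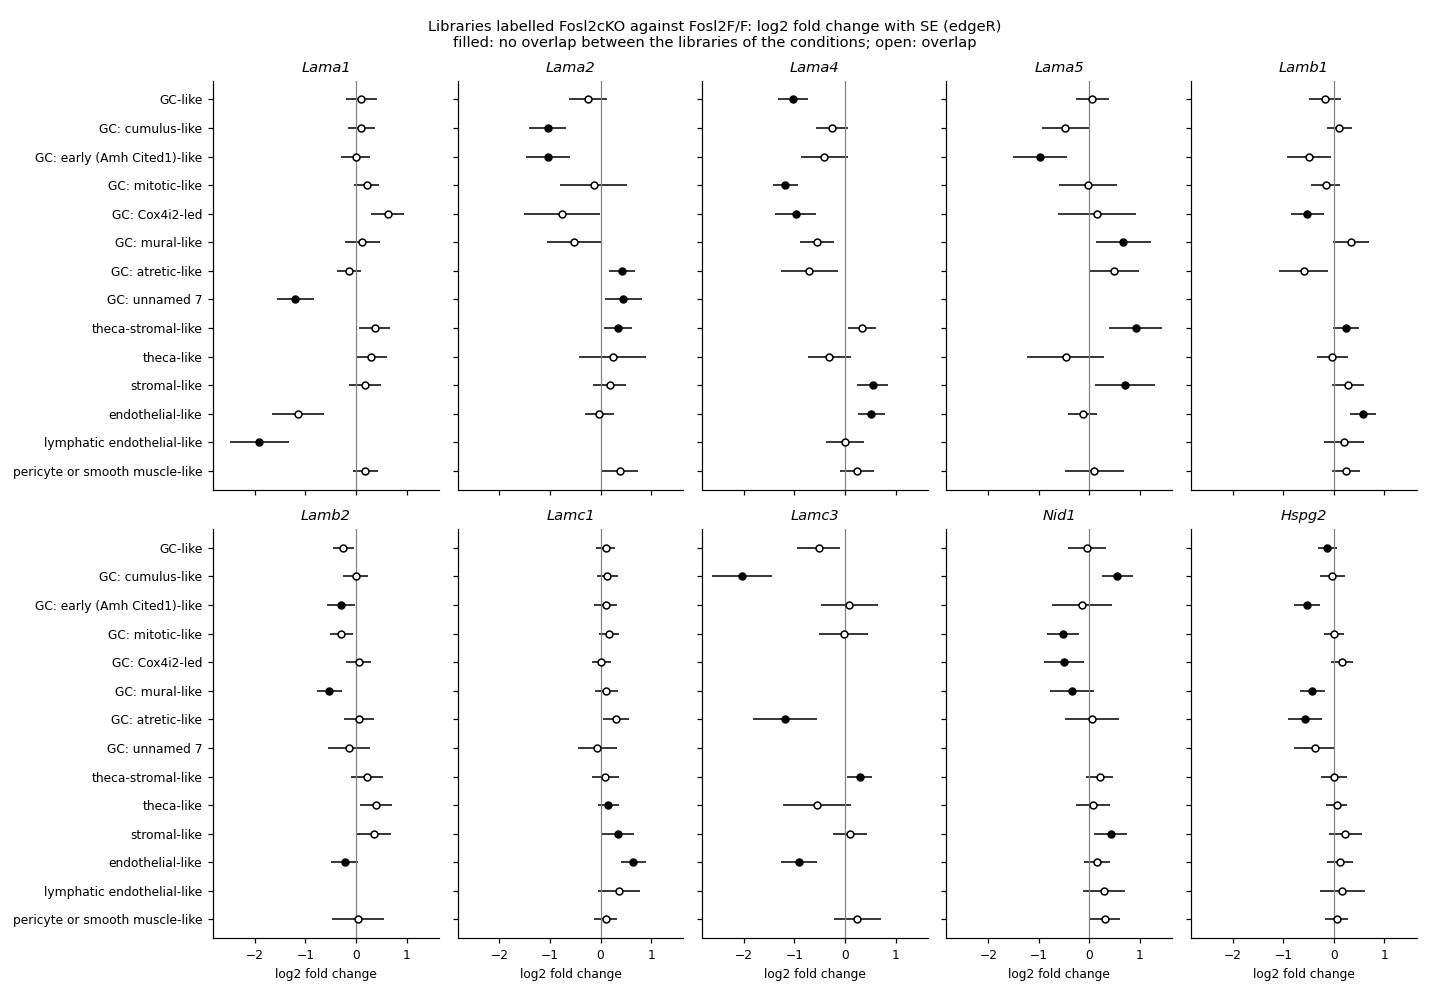
Log2 fold change with SE (edgeR) of each gene in each class or state, the libraries labelled Fosl2cKO against Fosl2F/F. Filled symbols mark results in which the libraries of the conditions do not overlap, 38 of 129 where 32.3% of the tests over all genes do not, and open symbols those that overlap. All 10 genes lie above 0 in stromal-like, theca-stromal-like and pericyte or smooth muscle-like cells with the 4 libraries, 6 to 10 with a library left out, and 0 of the 129 pass with edgeR.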

How the data were processed

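Ovarian cells were captured with a Chromium kit that reads transcript ends. Per the labels and the study's methods, the authors aligned reads to GRCm38 with Cell Ranger and deposited UMI counts per gene and barcode, 1 matrix per library, and processed all libraries in parallel. Whether the deposited counts had passed through their removal of free RNA is not given in the sources used here. Barcodes with at least 500 genes and 1000 UMIs, a mitochondrial share under 10% and a hemoglobin share under 0.1% were kept. Doublets were removed by Scrublet score at 0.8% per 1000 cells, 412 to 4723 per library. Libraries were integrated with SCTransform in Seurat 5.3.0 (30 components, resolutions 0.8 and 0.5 for GCs). UMIs were summed per class and library and tested with edgeR 4.0.16 in R 4.3.3 (TMM, Benjamini-Hochberg adjustment over all genes that passed the filter on low counts); DESeq2 1.42.0 was an alternative. The test was checked on simulated data, where it recovered 2-fold changes only in part. The 10 genes, the lists and the tests were chosen with earlier results of these data known, and the limits for naming clusters, including the rule on leading genes of GC states, were set after the clusters were seen. The 10 genes are described in every class, and a fold change with error was named where the conditions did not overlap and the unadjusted p was under 0.05. The edgeR test prints no SE. The SE given is the absolute log2 fold change divided by the square root of the test's F statistic. Examples without such an error were chosen after their values were seen. Of the list genes with the most UMIs and the genes most alike in pattern that the rule selects, only some are printed. Classes with under 20 cells in a library (luteal-like, oocyte-like) and cells of a cluster of low depth were not described.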

Additional observations from a re-analysis of the deposited data

Results flagged for a closer look

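6 of the 10 genes stood on opposite sides in different cells: the libraries labelled Fosl2cKO were both lower than either control in a class or state and both higher in another. Of the 11881 genes tested in at least 10 of the 14 comparisons, as the 10 genes were, 34.4% did so too. The difference between the fold changes was not tested in any of them. It was 2.33 on the log2 scale for Lamc3 (cumulus-like against theca-stromal-like cells), 1.89 for Lama5 (early (Amh Cited1)-like against theca-stromal-like cells) and 1.73 for Lama4 (mitotic-like against stromal-like cells). For Lama2 it was 1.495 (cumulus-like cells against GC cluster 7), for Lamb1 1.09 (Cox4i2-led against endothelial-like cells) and for Nid1 1.07 (mitotic-like against cumulus-like cells). The pair of cells given for each gene is the one with the widest difference. In cumulus-like cells unscaled Lama2 lay above its level in macrophage-like cells in both Fosl2F/F libraries and below it in both libraries labelled Fosl2cKO. Unscaled Lamc3 reached 3.42 CPM in cumulus-like and 2.30 CPM in macrophage-like cells and rested on few UMIs. Lama5 was low in both members of its pair, at 1.58 to 5.77 CPM in early (Amh Cited1)-like and 1.06 to 2.55 CPM in theca-stromal-like cells (unscaled). On unscaled library sizes the conditions overlapped for Lamb1 in Cox4i2-led cells and for Nid1 in cumulus-like cells.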

How the results depend on the processing

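The class with the highest mean was the same for at least 9 of the 10 genes under every alternative. Lama5 moved to endothelial-like cells with means over cells and without Fosl2cKO replicate 1, and Lama4 to endothelial-like cells with stricter doublet removal, which left the lymphatic class too small. Of the 17 fold changes examined under the alternatives, 3 reversed with a library left out: Lama1 in GC-like cells (0.11, range -0.24 to 0.52, below 0 without Fosl2F/F replicate 1 or Fosl2cKO replicate 1), Lama1 in endothelial-like cells (-1.15, range -1.66 to 0.23, above 0 without Fosl2F/F replicate 2) and Lama4 in mural-like cells (-0.55, range -0.95 to 0.072, above 0 without Fosl2F/F replicate 1). The libraries whose removal moved a log2 fold change given with an SE over 1.5 times are named beside it. For the count of the 10 genes that passed, edgeR without the gene filter gave 1 in cumulus-like cells (Lama2), 2 in Cox4i2-led cells (Lama1 and Lama4) and 1 in mitotic-like cells (Lama4), where 0.916%, 3.08% and 2.20% of all genes passed, and DESeq2 gave 1 in mitotic-like cells (1.18%), each against 0. Leaving out each library in turn gave 0 to 1 in cumulus-like and early (Amh Cited1)-like cells (Lama2 without Fosl2cKO replicate 2, 0.942% and 1.51% of all genes), 0 to 1 in Cox4i2-led cells (Lama1 without Fosl2cKO replicate 2, 0.930%) and 0 to 2 in mitotic-like cells (Lama4 without Fosl2cKO replicate 1, 2.35%; Lama2 and Lama4 without replicate 2, 2.01%). It gave 0 to 1 in cluster 7 (Lama1 without Fosl2F/F replicate 1, 1.86%), in endothelial-like cells (Lama1 without Fosl2F/F replicate 1, 0.710%, and Lamc1 without replicate 2, 1.83%) and in lymphatic endothelial-like cells (Lama2 without Fosl2F/F replicate 1, 0.433%). Over the whole list the count was 15 without the filter (2.33% of its tests, 1.03% over all genes), 4 with DESeq2 (0.738% and 0.556%) and 4 to 15 with a library left out (0.716% to 2.66%, against 0.202% to 1.04% over all genes), against 0. The cause was not tested. The lone library of a group is then assumed to vary like the other group. The libraries share only replicate numbers: with these as a replicate block 0 of the 10 genes passed in any of the 14 comparisons, and same-numbered libraries deviated with r between -0.303 and 0.104 in the 20 classes fitted. Finer clusters allowed 13 of the 14 comparisons and stricter doublet removal 12. Depth limits Lama5 and Lamc3 most: in GC-like cells they rested on 85 to 180 and 50 to 129 UMIs per library.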
